A study of Arabidopsis thaliana with 88 samples.

Results

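The Casparian strip membrane domain proteins CASP1 (AT2G36100), CASP2 (AT3G11550), CASP4 (AT5G06200) and CASP5 (AT5G15290) were followed across Arabidopsis roots that differed in ploidy, genotype and growth substrate. These 4 genes were taken by locus code from the 33681 genes of the deposited tables, and all 4 were among the 20347 genes that passed the filter on low counts. CASPs are small membrane proteins that gather in a belt around each endodermal cell and hold the peroxidases, laccases and dirigent proteins that build the Casparian strip, the lignin band that seals the wall between endodermal cells. The transcription factor MYB36 switches the CASP genes on in Arabidopsis. The strip forces ions such as potassium to cross an endodermal membrane on their way to the xylem, and the study asked which root transcription accompanies the raised leaf potassium of newly made tetraploids.

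Libraries came from colchicine-derived neo-tetraploid (4x) and diploid (2x) plants of 5 genotypes, the mutants esb1-1, sos3-2, rhd6-3/rsl1-1 and chx25-3 and wild type Col-0 (WT), with 3 libraries in most groups. They formed 3 sets, soil roots (29 libraries) and soil shoots (29) of plants 5 weeks old on peat in short days, and plate roots (28) of plants 2 weeks old on half-strength Murashige and Skoog agar with sucrose. ESB1 is a dirigent-domain protein needed for an ordered Casparian strip, SOS3 is a calcium sensor of the salt response, RHD6 and RSL1 start root hairs, and the CHX genes encode cation/H+ exchangers. No treatment was given, a soil library came from 1 plant and a plate library from pooled plants, and all replicates came from a single experiment, so that p-values measure the spread within it. The titles give 1 line code for the 4x libraries of each mutant. Line and ploidy thus cannot be told apart within a mutant. The WT 4x line came from earlier work by the same group, and the paper uses another name for the line labelled chx25-3. Groups of 2 libraries were sos3-2 2x and rhd6-3/rsl1-1 2x on plates and chx25-3 4x on soil.

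Plate root libraries held 3292996 to 10246421 assigned reads each, soil root libraries 5850010 to 10435932 and shoot libraries 4698913 to 8635531. ESB1 averaged between 0.31 and 1.13 CPM (counts scaled to a common library size) in the esb1-1 root groups, against 101 to 264 CPM in the WT root groups. SOS3 averaged 1.29 to 2.74 CPM in sos3-2 roots, against 5.00 to 10.4 CPM in WT roots. RHD6 was lower in rhd6-3/rsl1-1 than in WT on plates (group means of 2.37 and 3.10 CPM, against 6.03 and 6.92 CPM), while in soil roots its mutant and WT libraries overlapped, from 0.42 to 3.36 CPM against 1.15 to 2.88 CPM. The 4 root hair markers of those mutant libraries were at a summed 1.22 to 5.97 CPM in soil, against 28.8 to 52.3 CPM in WT. No library stood out as a copy of another.

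In the RefSeq annotation of TAIR10.1, to which all 4 locus codes matched, each of them had 3 exons and 1 transcript. CASP1 lies on chromosome 2 (15159591 to 15160799, minus strand), CASP2 on chromosome 3 (3638178 to 3639348, plus), CASP4 on chromosome 5 (1877134 to 1878324, plus) and CASP5 on chromosome 5 (4967011 to 4968092, plus). The coding lengths were 621 bases for CASP1, 615 for CASP2, 609 for CASP4 and 564 for CASP5. The most alike coding sequences were CASP2 and CASP4, at 79.84% identity, and the least alike CASP2 and CASP5, at 55.07%. The longest stretch shared by CASP2 and CASP4 transcripts is shown because a read inside it could belong to either gene. It measured 20 bases, shorter than the 75-base reads.
Shared run of CASP2 and CASP4: ctccgtttagctgccattgt
CASP1 overlaps AT2G36090 on the opposite strand (median 25.6 CPM in soil roots and 79.6 CPM in plate roots), and CASP5 overlaps AT5G15300 on the opposite strand (0.72 and 0.81 CPM). The use of strand in the counting was not stated, so that reads from such overlaps could have gone to either gene. Expected counts of CASP1 were not whole in 53 of 88 libraries, a mark of reads split with another transcript. For CASP5 this held in 1 library. Which transcript shared the reads was not tested. For CASP5 in soil roots the neighbour was at a level like its own.

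The 250 bases upstream of the annotated start are shown for 3 members, CASP1 and CASP2, whose levels moved most closely together, and CASP5, whose level differed most between substrates. Capitals mark AACNG or its reverse complement CNGTT, the core that many MYB factors bind.
CASP1, chr2:15160800-15161049, minus strand: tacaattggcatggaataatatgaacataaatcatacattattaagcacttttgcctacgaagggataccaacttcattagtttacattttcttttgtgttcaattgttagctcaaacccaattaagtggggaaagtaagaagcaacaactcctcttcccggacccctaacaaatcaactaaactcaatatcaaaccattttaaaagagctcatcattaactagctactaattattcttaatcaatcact
CASP2, chr3:3637928-3638177, plus strand: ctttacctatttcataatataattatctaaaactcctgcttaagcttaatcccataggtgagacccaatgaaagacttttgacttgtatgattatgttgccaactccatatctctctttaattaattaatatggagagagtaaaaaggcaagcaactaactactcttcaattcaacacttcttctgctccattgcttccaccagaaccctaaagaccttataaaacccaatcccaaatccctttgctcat
CASP5, chr5:4966761-4967010, plus strand: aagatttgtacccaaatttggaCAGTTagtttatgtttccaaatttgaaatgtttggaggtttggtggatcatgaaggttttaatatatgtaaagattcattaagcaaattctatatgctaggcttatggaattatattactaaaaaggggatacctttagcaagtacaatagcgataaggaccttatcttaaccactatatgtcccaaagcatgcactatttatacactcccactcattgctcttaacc
The core occurred once each in the windows of CASP4 and CASP5 and was not found in those of CASP1 and CASP2, while 70.2% of 27443 Arabidopsis windows of this length held it. CACGTG, the G-box, was in none of the 4 windows and in 6.49% of all windows. TTGACC, a form of the W-box that WRKY factors bind, or its reverse complement GGTCAA was in none of the 4 either and in 12.2% of all windows. The other form, TTGACT, was not counted over all windows, and it occurs in those of CASP2 and CASP4.

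CASP1 was the most abundant of the 4 in every root library. By TPM, which divides by transcript length, it took 79.8% ± 2.03 of their sum in soil roots (SD, n = 29) and 74.4% ± 2.504 in plate roots (n = 28). CASP2 took 14.2% ± 1.29 in soil roots and 19.5% ± 2.28 in plate roots. CASP4 (5.71% ± 1.095 in soil roots, 2.93% ± 1.31 in plate roots) and CASP5 (0.297% ± 0.171 in soil roots, 3.19% ± 1.204 in plate roots) were the minor members.
The order CASP1, CASP2, CASP4, CASP5 by TPM held in 29 of 29 soil root libraries. In plate roots CASP1 was above CASP2, and CASP2 above the other two, in all 28 libraries, while CASP4 and CASP5 changed places from library to library (CASP4 higher in 14, CASP5 higher in the other 14). By CPM, which does not divide by length, CASP4 was higher in 20 of the 28 plate root libraries. The mean shares there were 3.34% for CASP4 and 2.78% for CASP5. Their order in plate roots thus depended on the library and on the measure.

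**Figure D1:**
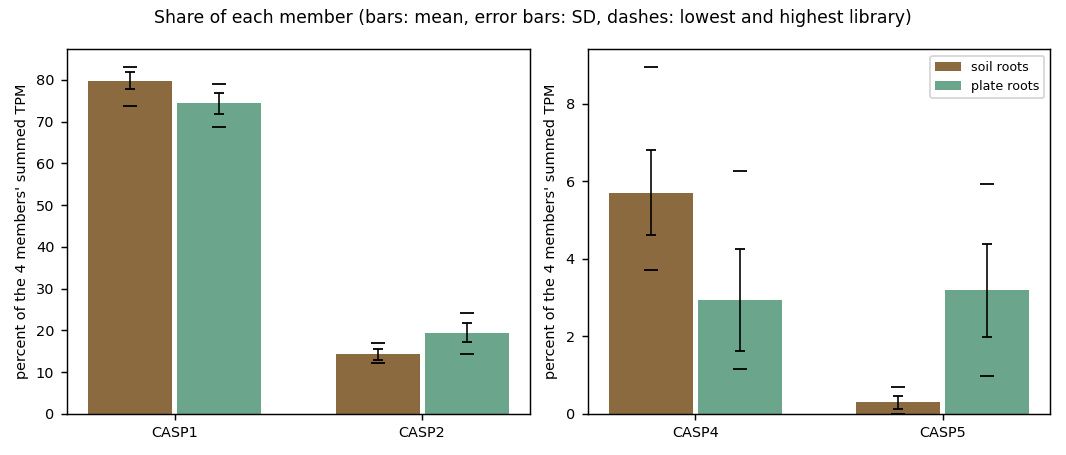
Share of each member in the summed TPM of CASP1, CASP2, CASP4 and CASP5, in percent, in soil root libraries (n = 29) and plate root libraries (n = 28). Bars are means, error bars SD and dashes the lowest and highest library. The right panel has its own axis. CASP1 takes at least 68.7% in every library, and CASP5 has 0.297% in soil roots, against 3.19% in plate roots.

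The members were root genes in these libraries. In the 29 shoot libraries CASP1 had 0 to 14 counts, CASP2 and CASP4 had at most 4, and CASP5 had at most 2 and was at 0 in 25. In WT 4x, CASP1 had 1341 to 1745 counts per root library, against 0 to 4 per shoot library, a ratio of 289 after scaling for depth (95% interval 140 to 719, counting error only). In WT 2x it had 2065 to 3362 counts in root libraries, against 3 to 5 in shoot libraries, a ratio of 222 (130 to 418). CASP2 was at least 140-fold higher in WT 4x roots than in shoots (3 counts over the shoot group taken as the floor) and 180-fold higher in WT 2x (61.3 to 871). For CASP4 the sums were 351 counts in WT 4x roots, against 5 in shoots, and 721 in WT 2x roots, against 1.
CASP5 had the smallest bounds, being at least 1.62-fold higher in WT 4x roots (11 counts in all, against 0) and at least 3.11-fold higher in WT 2x roots (27 counts, against 0). All 4 members were called higher in roots in both ploidies (adjusted p under 0.05 and a log2 fold change of at least 0.5 in edgeR's quasi-likelihood test), where 57% of the genes tested were called in WT 4x and 56.8% in WT 2x. The members passed the filter on low counts through root libraries, where they were high. In shoots CASP1 reached at most 3.58 CPM (median 0.87 CPM) and the others at most 1.30 CPM. These calls therefore add no support beyond the levels themselves. For CASP5 the call of roots against shoots was lost in WT 4x without WT 4x root replicate 2 (adjusted p = 0.125) or without any of the 3 WT 4x shoot libraries, with no low-count filter (0.053) and under both limma-voom settings, and in WT 2x it was lost with limma-voom on scaledTPM (0.32). Between 4x and 2x shoots no member was called in any genotype by edgeR or DESeq2, with 2 of 20 unadjusted p-values under 0.05. The shares of all genes called in shoots were 2.88% in esb1-1, 0.138% in sos3-2, 13.5% in rhd6-3/rsl1-1, 0.408% in chx25-3 and 6.74% in WT. Counts this low could not show a ploidy difference in shoots.

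In WT, CASP5 and CASP2 were much lower in soil roots than in plate roots, while CASP4 was at a like level in both. The sets differ in age, medium, sucrose, day length (the paper gives long days for agar) and pooling of plants, which cannot be told apart. In bulk roots fewer cells of a type and less RNA per cell cannot be told apart either.
CASP5 had 0.183, 0.741 and 0.168 CPM in WT 4x soil roots, against 15.4, 7.67 and 19.96 CPM in WT 4x plate roots. In WT 2x it had 0.271, 1.30 and 0.825 CPM in soil roots, against 10.6, 15.1 and 18.01 CPM in plate roots. The lowest plate library was thus far above the highest soil library.
The ratio of the summed counts, soil over plate, was 0.0243 in WT 4x (0.0121 to 0.0439, from 11 and 498 counts) and 0.0557 in WT 2x (0.0364 to 0.0821, from 27 and 495 counts). Across all 29 soil root libraries CASP5 had 0 to 18 counts, with 8 libraries at or under 3 counts, against 25 to 214 counts in the 28 plate root libraries. Over the 10 genotype and ploidy pairs the log2 differences of the means, soil over plate, ran from -5.30 to -2.58.
CASP2 had 29.8, 28.3 and 30.5 CPM in WT 4x soil roots, against 98.3, 82.6 and 122 CPM in WT 4x plate roots. In WT 2x it had 39.2, 57.6 and 41.6 CPM in soil roots, against 119, 94.2 and 159 CPM in plate roots. The log2 fold change was -1.77 ± 0.32 (SE) in 4x and -1.43 ± 0.31 in 2x.
In WT 4x the call was also reached by CASP1 (-1.17 ± 0.34, adjusted p = 0.0055 in edgeR), which in WT 2x stood at -0.56 with no call. CASP4 was at -0.20 ± 0.40 in 4x and -0.02 ± 0.39 in 2x. Over the 10 genotype and ploidy pairs, compared by their levels with no test, CASP2 lay lower in soil roots without overlap in 8, and overlapped in esb1-1 4x (means of 53.4 CPM in soil roots and 72.5 CPM in plate roots) and esb1-1 2x (69.5 and 63.3 CPM). CASP1 lay lower without overlap in 7 pairs and higher in 1, esb1-1 2x (306 CPM in soil roots and 203 CPM in plate roots). CASP4 overlapped in 7 pairs, was higher in soil roots of rhd6-3/rsl1-1 4x (16.8 CPM, against 10.97 CPM in plate roots) and esb1-1 2x (33.3 CPM, against 13.4 CPM) and lower in those of chx25-3 4x (12.1 CPM, against 19.2 CPM).
In the tests of WT, 3 of 4 members were called in 4x, where 34.4% of all genes were called, and 2 of 4 in 2x, where the share was 34.3%. CASP5 was among them in both ploidies. It reached at most 1.80 CPM in soil roots and 0.63 CPM in shoots. It thus passed the filter on low counts (2 CPM in 6 libraries) only through plate roots, where it was high. Its calls here therefore add no support to the difference in its levels.
Of 22 tested genes known to build or regulate the strip, 10 were called lower and 3 higher in WT 4x, and 9 lower and 3 higher in WT 2x, with list medians of -0.74 and -0.48 beside 0.03 and 0.04 for all genes. The lower ones included the peroxidases PER64 (-1.62 in 4x, -0.89 in 2x) and PER72 (-1.78 and -1.35) and the dirigent proteins DIR18 (-2.04 and -1.75) and DIR24 (-1.90 and -1.46). The higher ones were the peroxidase PER39, CIF1, a peptide that signals strip integrity, and LOTR1, a protein needed for the strip's position. MYB36 was at -0.82 in 4x and called lower there.
All 4 root hair markers were also lower in soil roots of WT (list medians of -3.56 in 4x and -2.99 in 2x), and suberin genes were called lower in 6 of 8 (4x) and 7 of 8 (2x). The endodermal identity genes SHR and SCR were both higher in soil roots of WT (medians of 0.55 in 4x and 0.89 in 2x), and SHR was called (0.71 ± 0.23 in 4x and 0.99 ± 0.23 in 2x). Their part in the CASP differences was not tested.

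Every member was lower in 4x than in 2x soil roots in every genotype, but no single-genotype difference passed the test. In WT 4x soil roots CASP1 had 137, 142 and 147 CPM, against 186, 313 and 243 CPM in WT 2x. CASP2 had 29.8, 28.3 and 30.5 CPM in WT 4x, against 39.2, 57.6 and 41.6 CPM in WT 2x. The 4x libraries lay close together and below every 2x library for these members.
CASP4 had 9.63, 13.3 and 10.11 CPM in WT 4x, against 16.1, 26.6 and 21.1 CPM in WT 2x, again without overlap. CASP5 had 0.183, 0.741 and 0.168 CPM in WT 4x, against 0.271, 1.30 and 0.825 CPM in WT 2x, which overlapped.
The log2 fold changes in WT soil roots were -0.80 ± 0.34 (SE) for CASP1, -0.64 ± 0.31 for CASP2, -0.95 ± 0.40 for CASP4 and -1.16 ± 0.64 for CASP5. The unadjusted p of CASP1, CASP2 and CASP4 ran from 0.020 to 0.042, and none was called in edgeR or DESeq2, in a comparison that called 0.0491% of all genes.
In chx25-3 the values ran from -0.56 for CASP2 to -1.61 for CASP5, again with no overlap for CASP1, CASP2 and CASP4. In sos3-2, rhd6-3/rsl1-1 and esb1-1 the values of CASP1 lay between -0.17 and -0.06, and CASP4 was at -0.84, -0.35 and -0.78 in these 3 genotypes. The 4x and 2x libraries of CASP4 were separate in 4 of 5 genotypes (all but rhd6-3/rsl1-1). In sos3-2, for example, it had 10.97, 10.14 and 11.7 CPM in 4x, against 19.9, 19.2 and 19.7 CPM in 2x.
Of the 20 member and genotype pairs, 20 were lower in 4x and 9 did not overlap. Among all genes 7.61% were lower in 4x in all 5 genotypes, and the share without overlap in either direction was 16.6% in esb1-1, 16.6% in sos3-2, 10% in rhd6-3/rsl1-1, 20% in chx25-3 and 11% in WT. The shares called were 0.00491% in esb1-1, 0.00983% in sos3-2, 0.0197% in rhd6-3/rsl1-1 and 0.0147% in chx25-3.

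**Figure D2:**
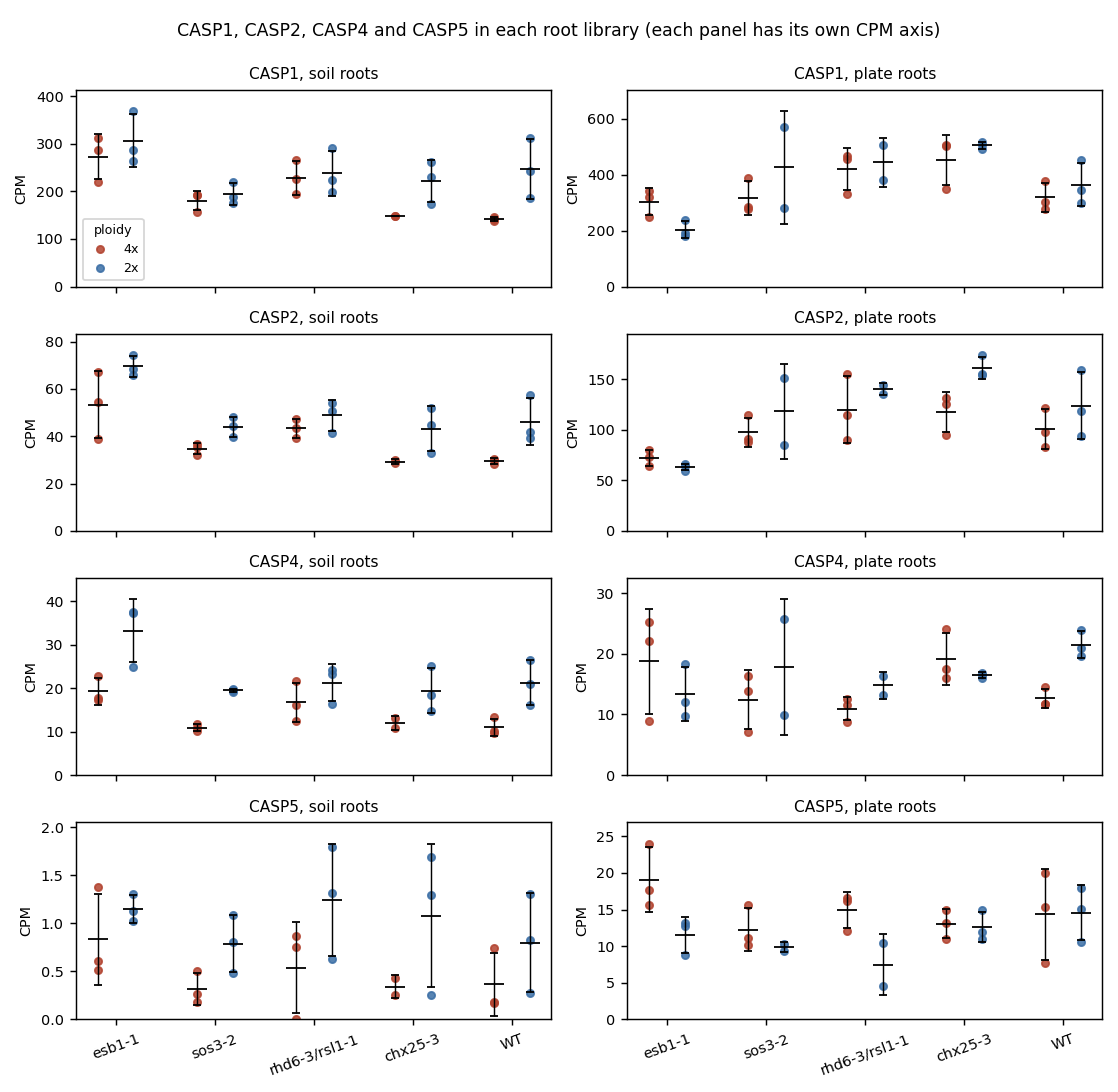
CPM of each member (rows) in each soil root library (left) and plate root library (right), by genotype, with 4x beside 2x. Points are libraries, long dashes group means and error bars SD, and every panel has its own axis from 0. In soil roots of WT and chx25-3 the 4x points of CASP1, CASP2 and CASP4 lie below all 2x points.

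Averaged over the 5 genotypes, CASP4 and CASP5 were called lower in 4x soil roots. CASP4 averaged 14.2 ± 4.32 CPM in 4x (SD, n = 14) and 22.998 ± 6.87 CPM in 2x (n = 15), a log2 fold change of -0.72 ± 0.18 (SE, adjusted p = 0.028 in edgeR), lower in 5 of 5 genotypes. CASP5 averaged 0.489 ± 0.365 CPM in 4x and 1.01 ± 0.469 CPM in 2x, a log2 fold change of -1.11 ± 0.28 (adjusted p = 0.035 in edgeR), with 4x and 2x libraries that overlapped in every genotype. CASP5 entered this test only through its plate root levels, being under the filter's 2 CPM in soil roots. CASP1 (-0.34 ± 0.16) and CASP2 (-0.42 ± 0.14) were not called, with adjusted p of 0.49 and 0.19. The share of all genes called was 0.816%.
The CASP4 call was lost when any of 8 libraries was left out (adjusted p from 0.0503 to 0.11), namely chx25-3 4x replicates 2 and 3, chx25-3 2x replicate 2, WT 2x replicate 2, esb1-1 4x replicate 1, esb1-1 2x replicate 2, rhd6-3/rsl1-1 4x replicate 1 and rhd6-3/rsl1-1 2x replicate 2. The CASP5 call was lost without any of 16 libraries, at least 1 in each of the 10 soil root groups (adjusted p from 0.0506 to 0.104). These were esb1-1 4x replicates 1 and 3, esb1-1 2x replicate 2, sos3-2 4x replicates 1 and 2, sos3-2 2x replicates 1 and 3, rhd6-3/rsl1-1 4x replicate 2, rhd6-3/rsl1-1 2x replicate 2, chx25-3 4x replicates 2 and 3, chx25-3 2x replicates 2 and 3, WT 4x replicates 1 and 3 and WT 2x replicate 2. Over all 29 fits that left out a soil root library the log2 fold changes stayed between -0.77 and -0.68 for CASP4 and between -1.30 and -1.01 for CASP5.
Among the strip genes 1 of 22 was called, the dirigent protein DIR16 (-0.50 ± 0.12, adjusted p = 0.011), which averaged 27.7 ± 11.9 CPM in 4x and 38.2 ± 14.6 CPM in 2x. Of the 22, 16 were lower in 4x, with a median of -0.18 beside 0.00 for all genes. None of 30 tested CASP-like relatives, proteins of the same fold outside the strip, was called (median -0.06). In the same comparison all 5 xylem markers (median -0.27) and 3 of 4 root hair markers (median -0.67) were lower in 4x and all 4 leaf mesophyll markers higher (median 0.56), with none called. The summed root hair level was 2.84 to 48.4 CPM in 4x soil roots and 1.22 to 75.8 CPM in 2x, the summed xylem level 202 to 327 CPM and 244 to 336 CPM, and the summed mesophyll level 13.8 to 128 CPM and 17.8 to 66.8 CPM, against at least 38063 CPM in shoots. Their part in the CASP values was not tested.

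Of 20 pairs in plate roots, 12 were lower in 4x and 6 did not overlap, and none was called. Without overlap were 18.8% of all genes in esb1-1, 15.7% in sos3-2, 19% in rhd6-3/rsl1-1, 25.9% in chx25-3 and 10.5% in WT, and called were 0.0541%, 0%, 0.00983%, 2.83% and 0.0246% of all genes in the same order of genotypes. In esb1-1 on plates all 4 members were higher in 4x, from 0.20 for CASP2 to 0.72 for CASP5. CASP5 was higher in 4x plate roots in 4 of 5 genotypes, with 12.1, 16.2 and 16.6 CPM in rhd6-3/rsl1-1 4x, against 4.54 and 10.4 CPM in 2x. Its mean over genotypes was 0.41 ± 0.19 on plates (adjusted p = 0.44 in edgeR, where 0.172% of genes were called), the other members lying between -0.21 and -0.06.
The mean ploidy effect in soil roots minus that in plate roots, a contrast added after seeing the data, was -1.52 ± 0.34 for CASP5 (adjusted p = 0.0514 in edgeR). It was -0.28 for CASP1, -0.21 for CASP2 and -0.52 for CASP4, with adjusted p of 0.68 to 0.93, where 0.0688% of genes were called. The root hair gene PRP3 was called in the same contrast (-2.04), and its part in the CASP5 value was not tested. PRP3 was named after its value was seen, since no member was called there. Leaving out any of 13 libraries brought CASP5 past the threshold (adjusted p from 0.0167 to 0.0473).

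**Figure D3:**
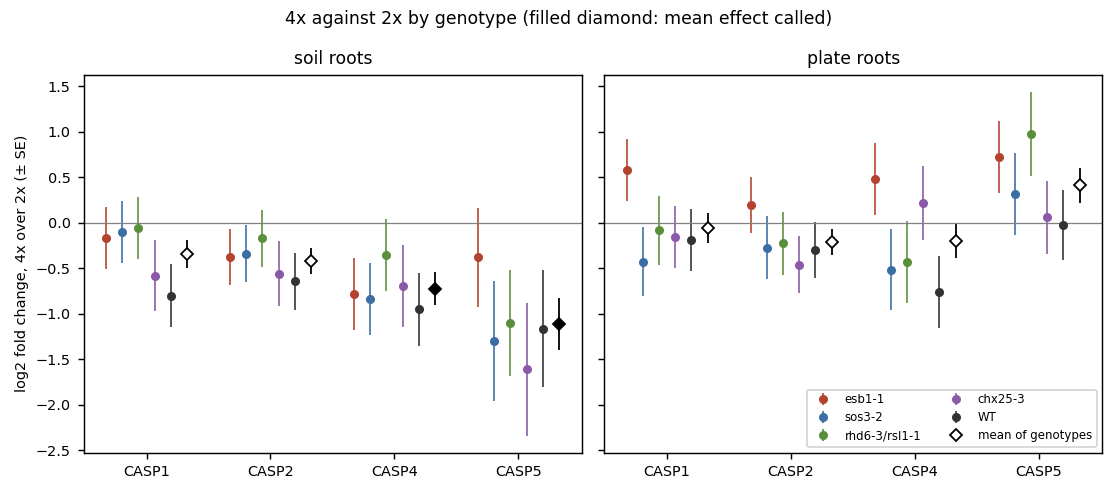
Log2 fold change of 4x over 2x for each member and genotype in soil roots (left) and plate roots (right), with SE. Diamonds are the mean over genotypes, filled where called. In soil roots all 20 values are below 0 and the CASP4 and CASP5 diamonds are filled, while in plate roots CASP5 lies above 0 in 4 of 5 genotypes.

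The esb1-1 mutant, which lacks a strip protein, had lower CASP2 than WT in plate roots, as a mean of both ploidies, while in soil roots its 4 members stood above WT without passing the test. In soil roots CASP1 had 312, 287 and 220 CPM in esb1-1 4x, against 137, 142 and 147 CPM in WT 4x (0.94 ± 0.34). CASP2 had 67.0, 54.4 and 38.8 CPM in esb1-1 4x, against 29.8, 28.3 and 30.5 CPM in WT 4x (0.85 ± 0.31). CASP4 had 17.3, 22.9 and 17.8 CPM in esb1-1 4x, against 9.63, 13.3 and 10.11 CPM in WT 4x (0.81 ± 0.40). For these members the groups did not overlap, which held for 7.94% of all genes, and CASP5 was at 1.31 ± 0.65 with overlap.
None of the 4 was called in edgeR, where 0.3% of all genes were called, although all 4 unadjusted p-values were under 0.05, and DESeq2 called CASP1 (adjusted p = 0.014) and CASP2 (0.017). Shares of all genes called are given for edgeR only, so no DESeq2 call of a member can be set against such a share. These 4x WT libraries are the ones in which the members were low against WT 2x, so the mutant and the ploidy comparisons share them and are not independent.
In soil roots of esb1-1 2x the members were at 0.31 to 0.65 above WT 2x, with no call in edgeR or DESeq2 and no unadjusted edgeR p under 0.05 (0.349% of all genes called), and of the 4 CASP2 alone did not overlap (15.7%). It had 65.7, 68.5 and 74.3 CPM in esb1-1 2x, against 39.2, 57.6 and 41.6 CPM in WT 2x. Over both ploidies CASP2 averaged 61.4 ± 12.9 CPM in esb1-1 and 37.8 ± 11.1 CPM in WT (SD, n = 6 each), a log2 fold change of 0.72 ± 0.22 (adjusted p = 0.14 in edgeR, where 0.821% of genes were called). The mean effects of the other members were 0.63 for CASP1, 0.73 for CASP4 and 0.92 for CASP5, with adjusted p of 0.52 to 0.90. All 4 unadjusted p-values of these means were under 0.05, and DESeq2, again with no share of all genes given, called CASP1, CASP2 and CASP4 (adjusted p of 0.017, 0.00035 and 0.043).

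Strip genes other than the CASPs changed in the same soil roots of esb1-1. Of 22 tested, 6 rose and 4 fell in the mean of both ploidies (median 0.39, beside -0.01 for all genes). Those that rose were the peroxidases PER64 (0.98 ± 0.22) and PER72 (1.18 ± 0.23) and the dirigent proteins DIR9 (0.88), DIR16 (1.05), DIR18 (0.89) and DIR24 (1.05). Those that fell were ESB1 itself (-7.17), the peroxidases PER3 (-1.48) and PER39 (-1.73) and the kinase SGN1 (-1.22), which carries the strip integrity signal. These genes were named after their values were seen, since no member was called in that comparison.
Of the 8 suberin genes, which make the lipid layer of older endodermis, 2 rose, the fatty acid hydroxylase CYP86A1 (0.89) and the reductase FAR4 (0.93), with 7 of 8 above WT. Of 30 CASP-like relatives, CASPL1C1 (2.32), CASPL1D2 (0.96) and CASPL1B2 (0.87) rose and CASPL1A1 (-1.69) fell. The 2 endodermal identity genes, SHR and SCR, were below WT with no call (median -0.53).

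In plate roots the members were lower in esb1-1 2x. CASP2 had 59.5, 66.0 and 64.4 CPM in esb1-1 2x, against 119, 94.2 and 159 CPM in WT 2x (-0.97 ± 0.31, adjusted p = 0.076 in edgeR). CASP1 had 190, 181 and 239 CPM in esb1-1 2x, against 298, 346 and 452 CPM in WT 2x (-0.84 ± 0.34), and CASP4 was at -0.68 ± 0.40. These 3 members did not overlap, which held for 27.7% of all genes, and none was called in edgeR, in a comparison that called 2.56%. Of the 4 members 2 had an unadjusted p under 0.05, CASP1 and CASP2, which DESeq2 called (adjusted p of 0.010 and 0.00038, with its share of all genes not given). Without WT 2x replicate 2 edgeR also called CASP2 (-1.13, adjusted p = 0.046).
In the 4x plate roots the values of esb1-1 against WT were mixed, from -0.48 for CASP2 to 0.57 for CASP4, with no call (0.206% of all genes). Over both ploidies CASP2 averaged 67.9 ± 7.41 CPM in esb1-1 and 112 ± 27.4 CPM in WT (SD, n = 6 each), and fell by 0.72 ± 0.22 on the log2 scale (adjusted p = 0.044 in edgeR, where 3.42% of genes were called). That call was lost in 10 of 12 fits without a library (adjusted p from 0.0576 to 0.177), the exceptions being those without WT 2x replicate 2 and WT 4x replicate 2.
Beside it, all 4 root hair markers fell in plate roots of esb1-1 (median -1.13, EXPA7 -1.16 and PRP3 -1.52), as did the strip genes ESB1, PER3 (-0.75) and SGN1 (-0.96), the suberin gene ASFT (-1.21) and the CASP-like CASPL1A1 (-2.48) and CASPL1C2 (-1.55), while CASPL3A1 rose (1.21). The part of the root hair difference in the CASP values was not tested.
The mean esb1-1 effect in soil roots minus that in plate roots, again a contrast added after seeing the data, was 1.45 ± 0.31 for CASP2 (adjusted p = 0.0036 in edgeR), 1 of 4 members where 1.17% of genes were called. That call held in each of the 24 fits that left out an esb1-1 or WT root library (1.34 to 1.54, adjusted p from 0.0024 to 0.014), and was lost with the library number as a covariate (2.10, adjusted p = 0.051). CASP1 was at 1.09 ± 0.34 (0.12), CASP4 at 0.79 ± 0.40 and CASP5 at 0.87 ± 0.50. In the same contrast 7 of 22 strip genes and 3 of 8 suberin genes were called higher, 1 strip gene (PER39, -1.54) was called lower, and 2 of 4 root hair markers were called higher.

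**Figure D4:**
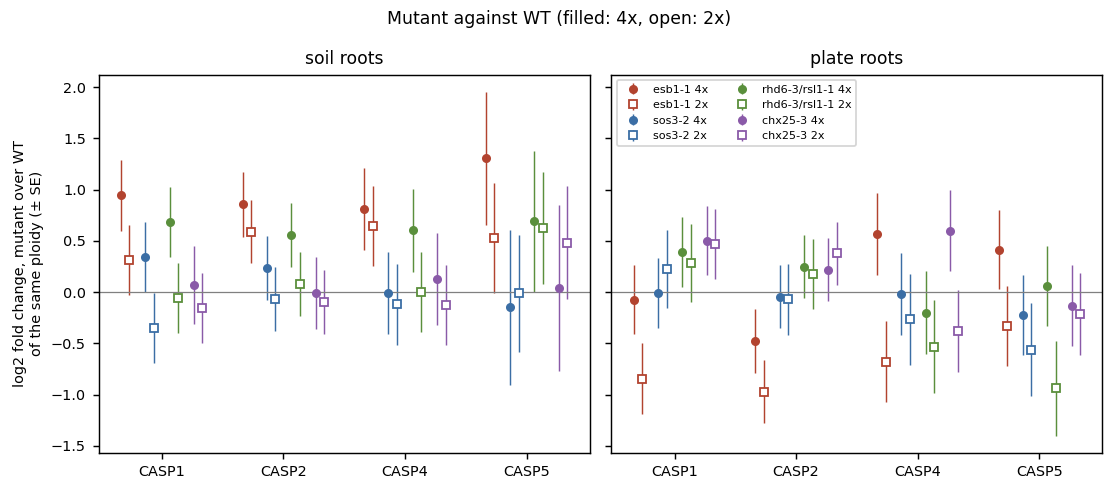
Log2 fold change of each mutant over WT of the same ploidy for each member in soil roots (left) and plate roots (right), with SE. Filled circles are 4x and open squares 2x. In soil roots the esb1-1 values run from 0.31 to 1.31, and in plate roots those of esb1-1 2x from -0.97 to -0.33.

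Across all 64 mutant comparisons of single members within 1 ploidy, edgeR called 0, with log2 fold changes from -0.97 to 1.31 and 8 unadjusted p-values under 0.05, and DESeq2 called 4, all in esb1-1. The shares that follow are those of edgeR. On soil the shares of all genes called were 0.0246% for sos3-2 4x, 0.059% for sos3-2 2x, 0.516% for rhd6-3/rsl1-1 4x, 0.619% for rhd6-3/rsl1-1 2x, 0.0246% for chx25-3 4x and 0.0147% for chx25-3 2x. On plates they were 0.0295% for sos3-2 4x, 0.0836% for sos3-2 2x, 2.63% for rhd6-3/rsl1-1 4x, 2.56% for rhd6-3/rsl1-1 2x, 0.0639% for chx25-3 4x and 3.62% for chx25-3 2x.
In 4x soil roots of rhd6-3/rsl1-1, which form few or no root hairs, the members were between 0.55 and 0.69 above WT 4x, and CASP1 and CASP2 did not overlap (11.4% of all genes). CASP1 had 195, 225 and 266 CPM there, against 137, 142 and 147 CPM in WT 4x. The 2x soil roots of this mutant had CASP1, CASP2 and CASP4 between -0.06 and 0.08. In sos3-2 soil roots the members lay between -0.15 and 0.35 of WT in 4x and between -0.35 and -0.01 in 2x, and in chx25-3 soil roots CASP1, CASP2 and CASP4 lay between -0.15 and 0.13. CASP1 had 157, 192 and 192 CPM in sos3-2 4x (0.35 ± 0.34 against WT 4x) and 148 and 149 CPM in chx25-3 4x (0.06 ± 0.38). CASP2 had 35.4, 36.7 and 32.3 CPM in sos3-2 4x (0.24 ± 0.31). All these 4x comparisons share the WT 4x libraries that were low against WT 2x, and are not independent of the ploidy comparison.
On plates CASP1 was above WT in chx25-3 (0.50 in 4x and 0.47 in 2x) and CASP5 was below WT in rhd6-3/rsl1-1 2x (-0.94). None of these was called. Whether the ploidy effect differed between a mutant and WT was tested for 4 mutants in each root set. No member was called in these 32 tests by edgeR or DESeq2, with 1 unadjusted p under 0.05 (CASP4 in esb1-1 on plates, 1.25 ± 0.56). The shares of all genes called were 0.0197% for esb1-1, 0.0197% for sos3-2, 0.0147% for rhd6-3/rsl1-1 and 0.00491% for chx25-3 on soil, and 0.00983%, 0.00983%, 0.00491% and 0.0983% for the same mutants on plates.

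Between libraries of the same group CASP1 and CASP2 moved together, and CASP4 did so in soil roots but not in plate roots. The values are Pearson r of log2 CPM as deviations from the group mean, a description over libraries, whose scaling and depth all members share. Over the 57 root libraries r was 0.81 for CASP1 and CASP2. CASP5 had r of 0.43 with CASP1, 0.36 with CASP2 and 0.23 with CASP4.
CASP4 had r of -0.06 with CASP1 and -0.18 with CASP2 over all root libraries. Split by set, r was 0.65 with CASP1 and 0.58 with CASP2 in the 29 soil root libraries, and -0.43 with CASP1 and -0.57 with CASP2 in the 28 plate root libraries. In sos3-2 2x on plates, for example, the library with 570 CPM of CASP1 had 9.84 CPM of CASP4, and the one with 283 CPM of CASP1 had 25.7 CPM of CASP4. The median r over the 6 pairs of members was 0.30 over all root libraries and 0.31 when computed from log2(TPM + 1).

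**Figure D5:**
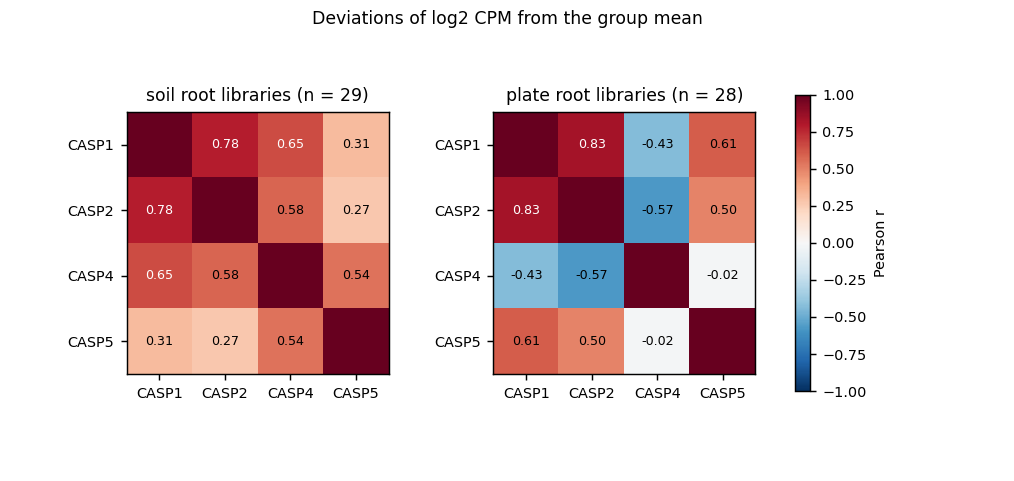
Pearson r between members of log2 CPM deviations from the group mean, in soil root libraries (left, n = 29) and plate root libraries (right, n = 28). Red is positive and blue negative. CASP4 is positive with CASP1 and CASP2 in soil roots (0.65 and 0.58) and negative with them in plate roots (-0.43 and -0.57).

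The 10 genes most like the mean of the 4 members by the same measure, over 57 libraries, were led by a pair of sterol synthesis genes, XF1, a squalene epoxidase (r = 0.76), and HMG1, an HMG-CoA reductase (0.72). The next were XTH15, a xyloglucan-modifying enzyme (0.72), AT1G55335 (0.69), AT5G23830 (0.69), the dirigent protein DIR24, listed as AT3G55230 (0.67), AT1G52342 (0.67), the strip peroxidase PER64 (0.67), AT4G19160 (0.66) and AT1G76250 (0.66). The 22 strip genes had a median r of 0.24 with the members' mean, beside 0.01 for all genes tested. The medians of the root hair (0.33), xylem (0.37) and leaf mesophyll (0.33) markers were higher, that of the CASP-like relatives was 0.24 and that of the suberin genes 0.11. Taken singly, CASP1 was most like AT1G30750 (r = 0.87), DIR24 (0.87) and UCC1, a copper protein of the strip (0.87), while CASP4 was most like PP2A, listed as AT1G69960 (0.83), and AT3G08530 (0.82).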

How the data were processed

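RNA was measured by 3′ mRNA sequencing (QuantSeq, single-end) in roots and shoots. Per the labels and the paper, the authors quantified 81620 transcripts with Salmon on Galaxy Europe and deposited expected counts and TPM per transcript for each library, and a gene table of TPM. The deposited expected counts are estimated counts, which Salmon splits among transcripts that a read matches. The deposited TPM values divide by effective transcript length and scale each library to a fixed total. The Salmon version, the transcript set, its build and the use of strand are not given in the sources used here.

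Expected counts were summed per locus and rounded. A gene entered the tests where 6 or more libraries reached 2 CPM, which 20347 of 33681 did. Libraries were scaled by TMM, and the quasi-likelihood model estimated 30 group means from 86 libraries (R 4.3.3, edgeR 4.0.16), with Benjamini-Hochberg adjustment within each contrast over all genes tested. Calls required both an adjusted p below 0.05 and a log2 fold change beyond 0.5 in size. The floor was 3 counts, and intervals are exact 95% intervals of a ratio of summed counts that cover counting error only, since no molecular identifiers were described. The 2 remaining libraries with conflicting labels were put in no group. The script was tested on simulated data, with 200 genes changed by a log2 value of 1 in 4x soil roots. The WT ploidy contrast called 34 of them (17%), and the mean over genotypes 196 (98%). A change of that size in a single genotype was thus mostly missed. Alternatives were no filter, DESeq2 1.42.0, limma 3.58.1 with voom on counts and on scaledTPM (the form of the authors' own fit), RLE scaling, fits on root libraries, a replicate block, the library number in the deposited names as a covariate, and leaving out each library. Fits on soil or plate root libraries alone and the differences of effects between soil and plate roots were chosen after seeing the data.

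The members, the gene lists (strip, suberin, marker and CASP-like genes) and the tests were chosen with earlier results of these data known. Named genes were the 4 members, list genes called where a member was called, the 10 genes most like the members' mean and the mutated genes. A further item is not reported here. Gene positions and sequences are from RefSeq's TAIR10.1. Same-numbered 4x and 2x libraries did not deviate together in every pair (above r = 0.1 in 9 of 14 soil and 3 of 13 plate pairs), so the main fit has no block.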

Additional observations from a re-analysis of the deposited data

Results flagged for a closer look

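CASP2 had an esb1-1 effect, mean of both ploidies, that differed between soil roots and plate roots by the test of the difference itself, a contrast added after seeing the data. The soil effect exceeded the plate effect by a log2 value of 1.45 ± 0.31 (edgeR adjusted p = 0.0036), with 0.72 in soil roots and -0.72 in plate roots. The call was lost with the library number as a covariate (2.10, edgeR adjusted p = 0.051). In the same contrast 2 of 4 root hair markers were called higher, and their part was not tested.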

How the results depend on the processing

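Levels of CASP5 in soil roots (at most 18 counts) and of all members in shoots are limited by depth. Among 64 member comparisons of mutants with WT, 0 calls became 1 with no filter, 4 in DESeq2, 4 on root libraries alone, 1 with limma-voom on scaledTPM and 2 on counts, and 0 to 1 without a library. For the mean mutant effects 1 call became 5 in DESeq2, 4 on root libraries alone and 2 with limma-voom on scaledTPM or on counts, and 0 to 1 without a library. The 8 calls of roots against shoots became 7 with no filter, 7 with limma-voom on counts and 6 on scaledTPM. The 5 calls of soil against plate roots became 3 with the library number as a covariate. For the differences between sets 1 call became 2 with no filter, 3 in DESeq2, 3 on root libraries alone, 3 with limma-voom on scaledTPM, 3 on counts and 0 with the library number, and 1 to 2 without a library. The 2 mean ploidy calls became 0 to 2 without a library and were 2 in each other fit of soil roots. For WT 2x roots against shoots the median log2 fold change of all genes was 0.17, and -0.06 with limma-voom on scaledTPM. The share of CASP1 in plate roots was 74.4% by TPM and 72.3% by CPM. On soil root libraries alone, chosen after seeing the data, 2 mutant and 3 mean mutant calls were made. Shares of all genes called are not given for these other fits, so their counts of members cannot be set against them.

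Replicate numbers were not taken as pairs, since 4x and 2x libraries of the same number did not deviate together in every pair. Such pairs had r above 0.1 in 3 of 13 plate and 9 of 14 soil pairs, and 8 of 18 plate and 22 of 24 soil libraries correlated best with their own number, which for soil roots is a hint of shared deviations from the data, not from the design. With the replicate block the mutant comparisons had 1 call (CASP2 in plate esb1-1 2x), the mean mutant effects 2 (CASP2 in esb1-1 on plates and on soil) and the differences between sets 3 (CASP5 for ploidy, CASP1 and CASP2 for esb1-1).

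With the library number as a covariate these values changed sign: the soil minus plate mean ploidy effect of CASP1 (0.11) and CASP2 (0.11), the plate esb1-1 4x values of CASP4 (-0.21) and CASP5 (-0.45), and the mean plate esb1-1 value of CASP5 (-0.82). Without a library, the WT plate ploidy value of CASP5 ran from -0.34 to 0.28, the plate esb1-1 4x value of CASP1 from -0.17 to 0.065, the mean plate ploidy value of CASP1 from -0.14 to 0.055, and the mean plate esb1-1 values from -0.20 to 0.11 for CASP4 and from -0.11 to 0.20 for CASP5. None of these was called with all libraries and no covariate, and the cause was not tested.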

Other observations

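The root and the shoot library whose title names the chx line and whose genotype label reads sos3-2 were in no comparison. In that root library the levels were 199 TPM for CASP1 (1569 counts), 29.5 TPM for CASP2, 8.90 TPM for CASP4 and 0 TPM for CASP5. The shoot library had 5 counts of CASP1, 3 of CASP2 and 0 of CASP4 and CASP5. The order CASP1, CASP2, CASP4, CASP5 of that root library was the one seen in all 29 grouped soil root libraries.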
